A study of Drosophila melanogaster with 26 samples.

Results

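ChIP-seq peaks obtained with the rabbit antibody Rb2 against ACF1 were compared with those obtained with a rabbit antibody against RSF-1 in wild-type (WT) Drosophila embryos. The members were chosen by sample title, as the peak lists of ACF1 Rb2 in WT chromatin (replicates 1 to 3) and of RSF-1 in WT chromatin (replicates 1 and 2). These are 5 of the 26 libraries of the series, and they hold 19501 of its 50336 peaks. The study profiled ACF1 and RSF-1 with 4 antibodies in WT embryos and in embryos that lack the antigen, together with pre-immune sera and input chromatin. All 5 libraries came from un-staged Oregon-R embryos, 0 to 12 h after egg laying, wild type for both genes and fixed with 3.7% formaldehyde. Rb2 is a polyclonal serum made with the C-terminal part of ACF1 and, by the study's own account, reacts weakly with some other proteins of the extract. The RSF-1 serum, polyclonal too, was made with a fragment from the centre of that protein. Libraries of the mutants acf1-7 and rsf1-3602, which are deletion alleles made by imprecise excision of a P-element, served below as lists made without the antigen. Each mutant is a single allele. Chromatin came from whole embryos, so that the cell types and stages behind a peak cannot be told apart.

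ACF1 is the signature subunit of the nucleosome remodelers ACF and CHRAC, and RSF-1 is that of the remodeler RSF. All of them use the ATPase ISWI, which slides nucleosomes along DNA, and in vitro they set nucleosomes at even distances from each other. In ChIP-seq, chromatin fragments bound by an antibody are sequenced, and a peak is an interval where a program finds more of them than it expects from its background. A peak therefore records enrichment with that serum, and whether the protein sat there is a separate question.

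The chromatin batch is given in the sample labels. Rb2 replicates 1, 2 and 3 came from batches 6, 7 and 8, and RSF-1 replicates 1 and 2 from batches 10 and 6. Rb2 replicate 1 and RSF-1 replicate 2 were thus made from the same chromatin with different antibodies, as separate libraries. In the other pairs between factors, the factor and the batch cannot be told apart. Apart from these batches, nothing in the labels says that replicates were independent collections. Nearly all peaks were 200 bp wide, with 1 or 2 exceptions per library. The lists carry neither scores nor read numbers, so that an absent peak means that none was called, at a depth that is not known for the single library. They were deposited in an order that is not by position: each list runs through 399 to 860 short stretches of ascending position. What orders these stretches is not stated, and the place of a peak in its list is given here as a place only.

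The Rb2 lists held 2556, 4009 and 3755 peaks (replicates 1, 2 and 3), and the RSF-1 lists held 5636 and 3545 peaks (replicates 1 and 2). The longest list was from RSF-1 and the shortest from Rb2, but the other RSF-1 list was shorter than 2 of the Rb2 lists. The difference between the groups (mean log2 of the peak number plus 1, Rb2 minus RSF-1) was -0.41 and did not exceed the spread between libraries (two-sided exact permutation test over library labels, p = 0.500). With 3 libraries against 2 there are 10 splits, so that no p below 0.1 can be reached here or in any test between these groups. In the chromatin of batch 6 the difference was -0.47.

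Most peaks of either factor were also called with the other (sharing of 50 bp or more). Of the Rb2 peaks, 91.4% of replicate 1 (2335 of 2556, exact 95% interval 90.2 to 92.4%) and 88.2% of replicate 2 (3536 of 4009, 87.2 to 89.2%) were present in at least 1 RSF-1 list. In replicate 3 it was 61.9% (2324 of 3755, 60.3 to 63.4%). For RSF-1, 65.3% of the peaks of replicate 1 (3678 of 5636, 64.0 to 66.5%) and 87.4% of those of replicate 2 (3099 of 3545, 86.3 to 88.5%) were present in at least 1 Rb2 list. Rb2 replicate 3 and RSF-1 replicate 1 thus stood apart from the other 3 libraries in having many more peaks of their own. The intervals cover counting error only and treat peaks as independent. Peaks of the input from the same chromatin took 6.49, 3.74 and 2.58% of the Rb2 lists and 2.16 and 4.12% of the RSF-1 lists. The libraries with the most unshared peaks therefore had the smallest shares of input peaks.

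Lists of different factors did not overlap less than lists of the same factor by more than the spread between libraries. Among the Rb2 replicates, the percentage of the shorter list present in the longer was 87.1 (replicates 1 and 2), 62.8 (1 and 3) and 57.5 (2 and 3), and the RSF-1 replicates shared 89.3%. Between factors, Rb2 replicate 1 shared 87.1 and 84.0% with RSF-1 replicates 1 and 2, Rb2 replicate 2 shared 84.0 and 81.3%, and Rb2 replicate 3 shared 57.7 and 56.6%. The low values are all from pairs with Rb2 replicate 3, within the factor as well as between factors. The mean was 74.2% over the 4 pairs of the same factor and 75.1% over the 6 pairs between factors, a difference of 0.966 percentage points (two-sided exact permutation test, p = 1.00). Without 1 of the libraries this difference lay between -4.69 (without Rb2 replicate 2) and 7.14 points (without RSF-1 replicate 2), and it was also negative without Rb2 replicate 1 (-3.45) or replicate 3 (-4.07).

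Where peaks were shared, they lay at nearly the same position whichever antibody had been used. The median distance between the centres of shared peaks was 16.0 to 22.0 bp for the 4 pairs of the same factor and 14.0 to 26.0 bp for the 6 pairs between factors. The smallest offset, 14.0 bp, was that of Rb2 replicate 2 and RSF-1 replicate 2, and the largest, 26.0 bp, that of Rb2 replicate 3 and RSF-1 replicate 1. In the pair from the same chromatin, 60.7% of the shared peaks were centred within 20 bp of each other.

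At the head of the lists the factors differed more than in the whole lists. The comparison of list heads was added after the data had been seen. Of the first 100 peaks, pairs of the same factor shared 60.0 to 72.0% (mean 64.2%) and pairs between factors shared 49.0 to 59.0% (mean 53.7%), so that the ranges did not overlap. For the first 500 peaks the means were 72.5 and 63.3%, and for the first 1000 they were 74.8 and 68.0%, with ranges that overlapped (66.6 to 80.8% against 56.8 to 69.0%, and 68.7 to 81.7% against 59.1 to 72.1%). Each of these differences (-10.6, -9.15 and -6.82 points) reached the smallest p that the design allows (two-sided exact permutation test, p = 0.100) and none can pass 0.05. The pair from the same chromatin shared 52.0, 66.2 and 72.1% and so lay among the other pairs between factors at 100 and 500 peaks and above them at 1000. The order of shared peaks gave the same picture: Spearman's rho between the places of shared regions, given as a description, was 0.777 to 0.872 within a factor and 0.746 to 0.794 between factors.

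**Figure D1:**
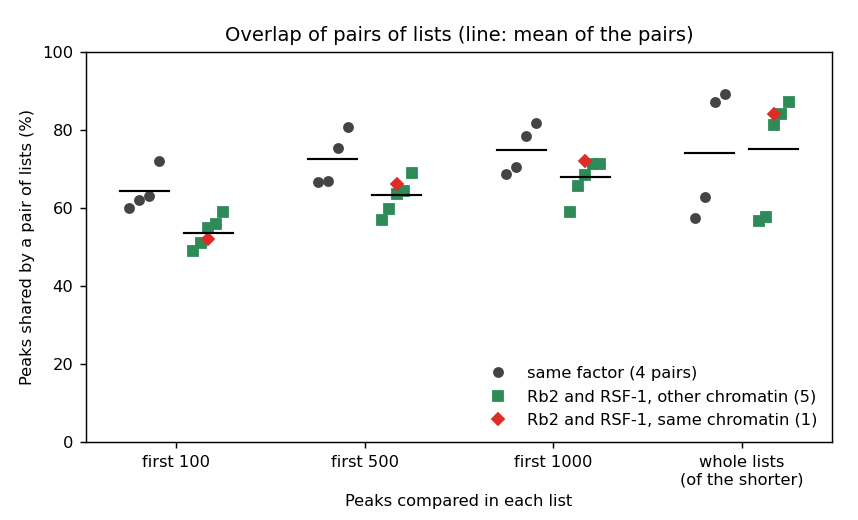
Percentage of peaks shared by each pair of lists (vertical axis) for the first 100, 500 and 1000 peaks of each list and for the whole lists (horizontal axis). Each point is 1 pair of libraries, black for the same factor, green for Rb2 with RSF-1 and red for the Rb2 and RSF-1 libraries from the same chromatin, and the line is the mean of the pairs. The means are apart for the first 100 peaks (64.2 and 53.7%) and close for the whole lists (74.2 and 75.1%). Whole lists differ in length and are given as a share of the shorter list, so that they are not a like measure.

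When replicates were merged and regions kept that at least 2 libraries of a group had called, 2906 Rb2 regions and 3164 RSF-1 regions were obtained. Of these, 2325 were shared, which is 80.0% of the Rb2 regions (78.5 to 81.4%) and 73.5% of the RSF-1 regions (71.9 to 75.0%). The second share fell to 46.4% without RSF-1 replicate 2 and to 69.5% without RSF-1 replicate 1, where a lone library supplied the RSF-1 regions. Without Rb2 replicates 1, 2 and 3 it was 55.6, 46.2 and 62.5%, where a pair supplied the Rb2 regions. Part of these falls follows from the rule, which changes the number of regions. Without RSF-1 replicates 2 and 1 there were 5636 and 3545 RSF-1 regions, of which 2613 and 2464 were shared. Without Rb2 replicates 1, 2 and 3 there were 2158, 1605 and 2225 Rb2 regions against the same 3164 RSF-1 regions. Any other cause was not tested. Requirements on the number of libraries moved both shares. Any library sufficing, they were 67.3 and 65.5%, and with every library of the group needed, 93.1 and 45.8%. Within a factor, 50.4% of all merged Rb2 regions (2952 of 5858) and 47.4% of all merged RSF-1 regions (2853 of 6017) came from a single library and took no part in these shares.

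The 5 lists together gave 7917 merged regions. All 5 libraries had called 1464 of them (18.5%), and 3925 (49.6%) were called with both antibodies in at least 1 library each. Regions that kept the factors apart were few. All 3 Rb2 libraries and no RSF-1 library had called 22 regions (0.278%), and both RSF-1 libraries and no Rb2 library had called 318 (4.02%). Counted in any library, 1915 regions (24.2%) were found with Rb2 alone and 2077 (26.2%) with RSF-1 alone. Most of these were seen in a single library: 1637 in RSF-1 replicate 1, 1273 in Rb2 replicate 3, 319 in Rb2 replicate 2, 164 in Rb2 replicate 1 and 122 in RSF-1 replicate 2. The second largest set of regions with calls in several libraries was the 533 that Rb2 replicate 3 alone had missed.

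These counts of consistent differences depended on the libraries. The 22 Rb2 regions became 34 without Rb2 replicate 2, 41 without Rb2 replicate 3, 56 without RSF-1 replicate 2, 66 without RSF-1 replicate 1 and 129 without Rb2 replicate 1. The 318 RSF-1 regions became 731 without Rb2 replicate 2 and 1958 without RSF-1 replicate 2. Part of this follows from the definition, because a region has to meet fewer libraries when 1 is left out. With all lists trimmed to their first 2556 peaks, the counts were 79 and 207.

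**Figure D2:**
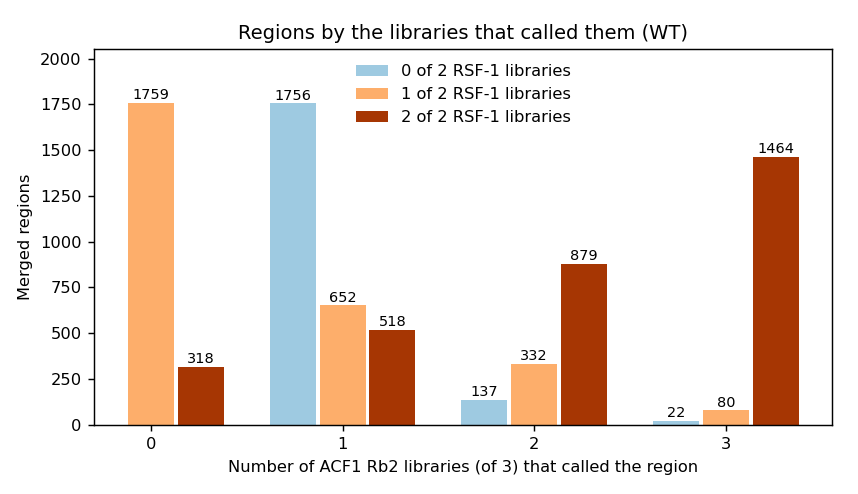
Number of merged regions (vertical axis) by the number of Rb2 libraries that called them (horizontal axis, of 3) and, by colour, the number of RSF-1 libraries (of 2). The tallest bars are the regions of a single library (1759 and 1756) and those called in all 5 (1464), and the bar for all 3 Rb2 and no RSF-1 library holds 22.

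In the chromatin of batch 6, 2146 peaks were shared by Rb2 replicate 1 and RSF-1 replicate 2. They made up 84.0% of the Rb2 list (82.5 to 85.4%) and 60.5% of the RSF-1 list (58.9 to 62.1%). As a share of the shorter list, its 84.0% lay within the range of the other 5 pairs between factors (56.6 to 87.1%, mean 73.3%). Regions called in both lists made up 54.3% of those called in either, against 30.0 to 61.7% (mean 44.1%) in those 5 pairs. Whether sharing chromatin raised the overlap was not tested. There is 1 such pair and hence no replicate of this comparison. Its libraries were made separately and their read depth is not known, so that antibody and library cannot be told apart.

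Peaks of this pair that were not shared had often been called with the other antibody in another batch. Of the 410 Rb2 peaks absent from RSF-1 replicate 2, 189 (46.1%) were present in RSF-1 replicate 1. Rb2 replicates 2 and 3 had 170 (41.5%) and 95 (23.2%). Of the whole Rb2 replicate 1 list, RSF-1 replicate 1 and Rb2 replicate 2 each held 87.1%, and Rb2 replicate 3 held 62.8%. Among the 410, the rat monoclonal antibody 3F1 against ACF1 had 137, 231 and 109 in its replicates 1 to 3 (33.4, 56.3 and 26.6%). Rb1, the other rabbit serum against ACF1, had 111 of them (27.1%) in the same chromatin, and the input of that chromatin had 49 (12.0%). Of the 2146 shared Rb2 peaks, 3F1 had more, with 57.7, 77.1 and 54.0%, as did Rb1 with 34.9%, whereas the input had 5.45%. The 1399 RSF-1 peaks absent from Rb2 replicate 1 were found mostly with RSF-1 again, 1129 (80.7%) in RSF-1 replicate 1 and 1098 (78.5%) in the rsf-1 mutant. Rb2 replicates 2 and 3 had 823 (58.8%) and 496 (35.5%) of these, and Rb1 in the same chromatin had 52 (3.72%) in a list of 1001 peaks. The input had 28 (2.00%). These shares were below those of the whole RSF-1 replicate 2 list, of which RSF-1 replicate 1 held 89.3% and Rb2 replicates 2 and 3 held 81.3 and 56.6%. They were also below those of the 2146 shared RSF-1 peaks, with 94.5% in the rsf-1 mutant, 34.9% with Rb1 and 5.50% in the input. The unshared peaks of the 2 lists were also placed differently along the genome: 133 of the 410 Rb2 peaks (32.4%) but 141 of the 1399 RSF-1 peaks (10.1%) lay off the chromosome arms, against 141 of the 2146 shared peaks (6.57%). On the X chromosome lay 9.76% of the unshared Rb2 peaks, 17.9% of the unshared RSF-1 peaks and 19.3% of the shared ones.

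Shared peaks came early in every list and unshared peaks came late. The median place of peaks shared with every library of the other factor was 42.2, 37.0 and 26.6% of the way down the Rb2 lists (replicates 1, 2 and 3) and 18.9 and 26.4% down the RSF-1 lists (replicates 1 and 2). Peaks with no partner in the other factor had their median at 93.5, 81.5 and 79.0% in the Rb2 lists and at 70.9 and 72.8% in the RSF-1 lists. In 5 of 5 libraries the unshared peaks came later, by 44.5 to 52.4 percentage points and by 49.3 on average (two-sided exact sign-flip permutation test over libraries, p = 0.0625, the smallest that 5 libraries allow). Without the peaks off the arms the mean was 48.4 points. It was smaller under 2 other settings. Where sharing with any library of the other factor sufficed, it was 38.4 points, and with lists of equal length it was 33.3.

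The decline was gradual in some lists and abrupt in others. In the first 10% of the list, 99.2, 98.3 and 99.2% of the Rb2 peaks and 99.1 and 100% of the RSF-1 peaks were shared with any library of the other factor. In the last 10%, this was 41.6, 60.2 and 9.87% for Rb2 and 40.1 and 72.0% for RSF-1. Rb2 replicate 1 kept 90.2% or more up to part 9 of the 10 equal parts of its list, whereas Rb2 replicate 3 went from 88.6% in part 5 to 13.9% in part 8. RSF-1 replicate 1 lost its partners more steadily and reached 45.9% by part 7. The ends of the lists were also richest in peaks off the arms, which made up 60.0, 32.2 and 28.0% of the last 10% of the Rb2 lists and 17.1 and 50% of that of the RSF-1 lists, against 1.06 to 4.30% of the first. On the arms alone, the last 10% of Rb2 replicate 1 was shared to 42.2% and that of Rb2 replicate 3 to 7.41%, so that the decline was present there as well.

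**Figure D3:**
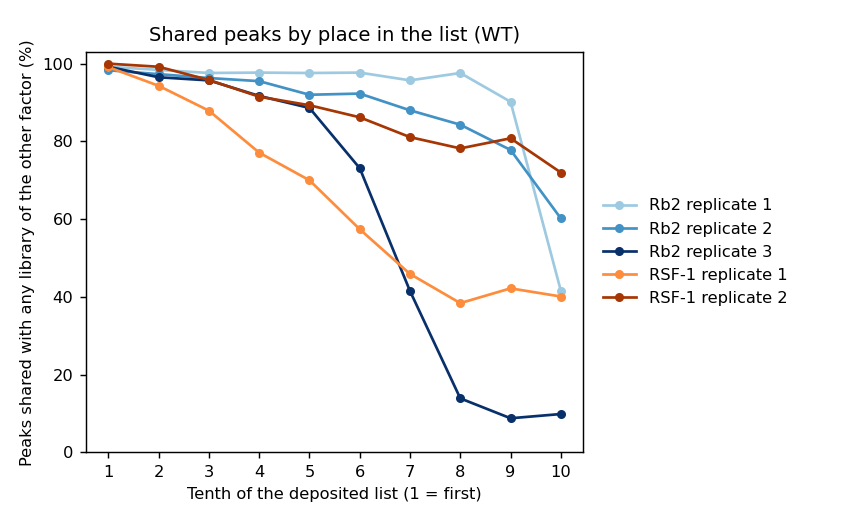
Percentage of peaks shared with any library of the other factor (vertical axis) in each of 10 equal parts of the deposited list (horizontal axis, 1 is the first), with 1 line per library, blue for Rb2 and orange or brown for RSF-1. All lines start between 98.3 and 100%, and they end between 9.87% (Rb2 replicate 3) and 72.0% (RSF-1 replicate 2).

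The spread of the peaks over the chromosomes did not differ between the factors by more than it did between libraries. Chromosome 3R held 21.6, 21.9 and 18.9% of the Rb2 peaks (replicates 1, 2 and 3) and 22.2 and 21.1% of the RSF-1 peaks (replicates 1 and 2). The X chromosome held 17.8, 18.6 and 17.8% of the Rb2 peaks and 18.5 and 18.8% of the RSF-1 peaks, and arms 2L, 2R and 3L each held 14.5 to 18.9% in every library. Differences between the group means were -0.50 points for 2L, -1.12 for 2R, 0.0780 for 3L, -0.83 for 3R, 0.294 for chromosome 4, -0.60 for X and 2.68 for sequences off the arms. The last was 0.549 without RSF-1 replicate 1 and 4.81 without RSF-1 replicate 2, and that for 2R was -0.363 without Rb2 replicate 3. None of the differences between all libraries passed the test, nor could any with this number of libraries (two-sided exact permutation tests, p between 0.3 and 1.00, adjusted p = 1.00 for each of the 7 classes). The sequences off the arms are heterochromatic scaffolds and unplaced sequence, where repeats are common and a read has less chance of a unique position. They also include the mitochondrial genome, with 2 peaks in RSF-1 replicate 1 and 0 in the other lists.

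The sequences off the arms varied most between libraries of the same factor. They held 274, 215 and 354 Rb2 peaks (10.7, 5.36 and 9.43%) and 208 and 282 RSF-1 peaks (3.69 and 7.95%). Both libraries of batch 6 were above Rb2 replicate 2 and RSF-1 replicate 1, which had the longest lists. These peaks were shared less than arm peaks in Rb2 replicate 1 (58.4 against 95.3%), in Rb2 replicate 3 (40.1 against 64.2%) and in RSF-1 replicate 2 (78.7 against 88.2%). In RSF-1 replicate 1 the order was turned round, with 71.2% off the arms and 65.0% on them, and in Rb2 replicate 2 the values were 83.7 and 88.5%.

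Chromosome 4, a small chromosome that is largely packaged as heterochromatin, set Rb2 replicate 3 apart. That list had 123 peaks there (3.28%), compared with 27 and 55 in Rb2 replicates 1 and 2 (1.06 and 1.37%) and 81 and 63 in the RSF-1 libraries (1.44 and 1.78%). Only 22 of the 123 (17.9%, 11.6 to 25.8%) were shared with RSF-1, against 85.2 and 85.5% in Rb2 replicates 1 and 2, 61.7% in RSF-1 replicate 1 and 74.6% in RSF-1 replicate 2. Without Rb2 replicate 3, the difference between factors on chromosome 4 was -0.39 points in place of 0.294. Of the 1464 regions called in all 5 libraries 7 lay on chromosome 4 (0.478%), whereas 16 of the 318 regions called in both RSF-1 and no Rb2 library did (5.03%, 2.90 to 8.04%). Counted in any library the order was the other way, with 109 of the 1915 regions of Rb2 alone (5.69%) and 30 of the 2077 of RSF-1 alone (1.44%), against 194 of all 7917 merged regions (2.45%). None of the 22 regions of Rb2 alone lay there, which allows a share of up to 15.4%.

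Some of the regions called in all 5 libraries stood at almost the same place in every list. Named regions on arms 2L, 3L, 3R and X were taken by position, as well as by their mean place in the lists, and positions are those of Release 5 of the genome as deposited. First by mean place was chr3R:8453515-8453724, at places 5, 1 and 4 of the Rb2 lists and 2 and 1 of the RSF-1 lists. Next came chr3R:18182175-18182401 (places 7, 7 and 6 and places 4 and 6) and chr3L:1668640-1668860 (places 11, 6 and 3 and places 10 and 12). These 3 were among the first 12 peaks of every list. The following 3 were chr3R:778323-778554, chr3L:6973097-6973317 and chr3R:10921422-10921668. All 6 were called in all 8 other antibody libraries, those of the acf1 and rsf-1 mutants included, and in none of the inputs or pre-immune libraries.

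Regions taken by position show how far down the lists a region of this class can be. The first on 2L, chr2L:102203-102467, was at places 1577, 1193 and 1947 for Rb2 and 1308 and 1212 for RSF-1. The second, chr2L:207235-207474, was at places 470, 131 and 764 and at places 539 and 447. Then followed chr2L:250780-251021, chr2L:277192-277426, chr2L:297768-297993 and chr2L:357837-358056, whose mean place was between 2.13% (the second of them) and 25.3% (the last) of the list. The last of them was also called in 4 inputs. Of the 6 regions, all were called in the rsf-1 mutant and in Rb2 acf1 replicate 2.

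The 22 regions of Rb2 alone had their median place behind that of the regions called in all libraries. It was 50.3, 24.9 and 30.7% in Rb2 replicates 1, 2 and 3, and that of the regions called in all 5 libraries was 36.4, 23.0 and 21.4%. On 2L, 3L, 3R and X, the arms from which regions were named, the earliest by mean place were chr3L:21019289-21019526 (places 276, 109 and 883) and chr3L:6182110-6182323 (places 413, 336 and 625), followed by chrX:9578804-9579007, chr3R:18985107-18985329, chr3R:23107037-23107239 and chr2L:8043309-8043530. By position, chr2L:1118984-1119203, chr2L:8675603-8675822, chr3L:10684039-10684253 and chr3L:10803970-10804201 were added. On the arms the median distance from such a region to the nearest RSF-1 peak was 1732 bp, with 8 of 20 (40.0%) under 1 kb and 3 (15.0%) under 400 bp. Few of these regions were near misses of the overlap rule, since their number was 22 with an overlap of 1 bp as well.

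The 318 regions of RSF-1 alone were further down. Their median place was 45.4 and 66.9% in RSF-1 replicates 1 and 2, where regions called in all 5 libraries were at 18.3 and 26.0%, and 2 and 0 of them were in the first 10% of the lists. On the same arms, the earliest by mean place were chr3R:20056129-20056330 (places 744 and 752) and chr3R:6440106-6440316 (places 1227 and 580), followed by chr2L:158822-159046, chr3R:1417259-1417503, chr2L:419733-419969 and chr2L:5982395-5982597. By position, chr2L:5738-5947, chr2L:252291-252507, chr2L:1954615-1954833 and chr2L:2748523-2748823 were added. On the arms the nearest Rb2 peak was at a median of 3914 bp, with 56 of 308 (18.2%) under 1 kb and 66 (21.4%) beyond 10 kb.

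The lists made from mutant embryos were not used to define these classes. Of the 22 regions called in all Rb2 WT and no RSF-1 WT library, 21 (95.5%) were called with Rb2 in acf1 replicate 2 and 17 (77.3%) in acf1 replicate 1, while RSF-1 ChIP in the rsf-1 mutant had 2 (9.09%, 1.12 to 29.2%). Each of the 22 was in at least 1 of the acf1 lists (100%, 84.6 to 100%). Of the 318 regions called in both RSF-1 WT and no Rb2 WT library, 300 (94.3%, 91.2 to 96.6%) were called with RSF-1 in the rsf-1 mutant, and Rb2 had 196 (61.6%) in acf1 replicate 2 and 1 (0.314%) in acf1 replicate 1. These acf1 lists held 5184 and 2226 peaks, and the rsf-1 list held 5346. Most regions of these classes were thus called again with the same serum in chromatin without its antigen. The longer acf1 list also held most of the RSF-1 regions. This recovery was not particular to these classes. Of the 1464 regions called in all 5 WT libraries, Rb2 called 1442 (98.5%) in acf1 replicate 2 and 1034 (70.6%) in acf1 replicate 1. RSF-1 called 1441 of them (98.4%) in the rsf-1 mutant. Regions that fewer WT libraries had called were recovered less. With at least 2 Rb2 and no RSF-1 library required, there were 159 regions, the 22 included. Of these, 97 (61.0%, 53.0 to 68.6%) were called with Rb2 in an acf1 list, and 30 (18.9%) were in no library outside the 5. Of the 1893 regions in 1 or 2 Rb2 and no RSF-1 library, Rb2 called 335 (17.7%) in acf1 replicate 1 and 202 (10.7%) in acf1 replicate 2. RSF-1 called 51 of them (2.69%) in the rsf-1 mutant. Rb1, a different serum, called 373 of them (19.7%) in acf1 chromatin, in a list of 1984 peaks. Of the 1759 in 1 RSF-1 and no Rb2 library, RSF-1 called 1225 (69.6%) in the rsf-1 mutant, and Rb2 called 17 (0.966%) in acf1 replicate 1 and 826 (47.0%) in acf1 replicate 2. Without 1 of the WT libraries in the definition, the share of the Rb2 regions found in an acf1 list was 63.6 to 98.5%, lowest without Rb2 replicate 1. For the RSF-1 regions found in the rsf-1 list it was 73.5 to 94.9%, lowest without RSF-1 replicate 1.

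The other antibodies and the controls were read in the same way, without a test. With 3F1, a rat monoclonal antibody against ACF1, 56.3 to 76.5% of the regions called in all 5 libraries were found in WT chromatin, compared with 27.3 to 31.8% of the 22 Rb2 regions and 5.03 to 26.7% of the 318 RSF-1 regions. In 3F1 replicate 2 the intervals of the last 2 classes overlapped (13.9 to 54.9% and 21.9 to 32%). Rb1 had 541 of the 1464 (37.0%), 3 of the 22 (13.6%) and 3 of the 318 (0.943%) in WT chromatin. Peaks in any of the inputs met 60 of the 1464 regions (4.10%), 2 of the 22 (9.09%, 1.12 to 29.2%) and 5 of the 318 (1.57%), so that the 22 regions are too few to be told from the others here. Pre-immune sera, whose lists held 379, 621 and 1 peaks, had 40 (2.73%), 3 (13.6%) and 0, the last of which allows a share of up to 1.15%. Lists outside the 5 held all but 2 of the 1464 regions, each of the 22 and all but 5 of the 318.

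**Figure D4:**
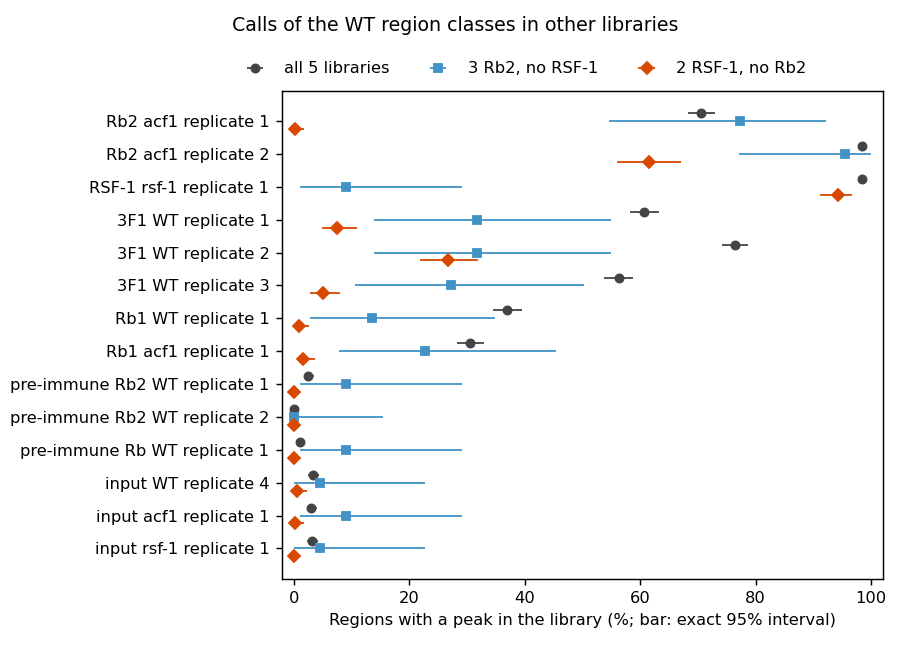
Percentage of the regions of each class that have a peak in each library outside the 5 (horizontal axis), with the libraries on the vertical axis and exact 95% intervals as bars. Grey circles are the 1464 regions called in all 5 libraries, blue squares the 22 of Rb2 alone and orange diamonds the 318 of RSF-1 alone. In the rsf-1 mutant the orange diamond is at 94.3% and the blue square at 9.09%.

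The regions called in all 5 libraries differed in their order between the factors, a comparison that was added after seeing the data. They were ranked from 1 to 1464 within each list. All 3 Rb2 ranks were ahead of both RSF-1 ranks for 274 regions (18.7%), both RSF-1 ranks were ahead of all 3 Rb2 ranks for 331 (22.6%), and for 859 (58.7%) the ranks of the groups overlapped. The 3 sets are defined by these ranks, so that their WT ranks are a description. Fewer libraries make the condition easier to meet, and the counts rose to 345 to 485 and 390 to 640 with 1 left out. The counts of 274 and 331 moved most without Rb2 replicate 3 (485 and 640), and the first was also above 1.5 times its value without Rb2 replicate 1 (460) and RSF-1 replicate 2 (450).

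The region with the widest gap in favour of Rb2 was chr3L:6177979-6178208, at ranks 126, 33 and 157 for Rb2 and 1368 and 1101 for RSF-1. It is the neighbour of chr3L:6182110-6182323, an early region of Rb2 alone, whose nearest RSF-1 peak was 4109 bp away. Next were chr3R:788437-788664 and chr3R:7438929-7439177, the latter at ranks 91, 107 and 173 for Rb2 and 887 and 898 for RSF-1. In favour of RSF-1, chrX:17662202-17662439 had ranks of 627 and 441 with RSF-1 and 1445, 1188 and 1316 with Rb2. It was followed by chr3R:11798739-11799031 and chr3R:20864753-20865187. The X chromosome held 18.6% of the regions ranked earlier with Rb2 (51 of 274) and 26.0% of those ranked earlier with RSF-1 (86 of 331), against 21.4% of all 1464. For 3L the shares ran the other way, 20.4 and 14.8%, against 17.6% of all. Neither was tested.

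The same order was present in chromatin without the antigen. Of the 268 regions ranked earlier with Rb2 that were called in both mutant lists, 236 (88.1%, 83.6 to 91.7%) were ranked earlier with Rb2 in acf1 replicate 2 than with RSF-1 in the rsf-1 mutant, with median ranks of 408 and 998. Of the 327 regions ranked earlier with RSF-1, 301 (92.0%, 88.6 to 94.7%) were ranked earlier with RSF-1 in the rsf-1 mutant, with median ranks of 473 there and 889 in acf1. The regions whose WT ranks overlapped were evenly divided, with 398 of 831 (47.9%) earlier in acf1 and 429 (51.6%) earlier in rsf-1. Leaving out 1 WT library lowered the first share to 79.3 to 86.4% and the second to 83.8 to 89.7%. Each mutant list here is 1 library, so that the comparison has no replicate, and genotype, batch and antibody differ between them.

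Over all regions called in the 5 lists, the order in the rsf-1 mutant was closest to that of RSF-1 in WT chromatin. Spearman's rho of the ranks, as a description over 1441 regions that share their libraries, was 0.92 and 0.85 with RSF-1 replicates 1 and 2 and 0.69, 0.63 and 0.57 with Rb2 replicates 1, 2 and 3. For Rb2 in acf1 replicate 2 it was 0.66, 0.75 and 0.69 with the Rb2 replicates and 0.59 and 0.54 with the RSF-1 replicates (1442 regions). In acf1 replicate 1, the values were 0.65, 0.73 and 0.82 with Rb2 and 0.53 and 0.60 with RSF-1 (1034 regions). These 3 mutant lists were thus each nearer to every WT list of their own antibody than to any list of the other. The list of Rb1 in acf1 chromatin had a rho of 0.45, 0.42 and 0.53 with Rb2 and of 0.36 and 0.45 with RSF-1 (447 regions). In WT chromatin, Rb1 had a rho of 0.56, 0.47 and 0.40 with Rb2 and of 0.34 and 0.31 with RSF-1 (541 regions). The 3F1 lists, which target ACF1 as Rb2 does, had a rho of 0.18 to 0.47 with Rb2 and of 0.24 to 0.45 with RSF-1.

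**Figure D5:**
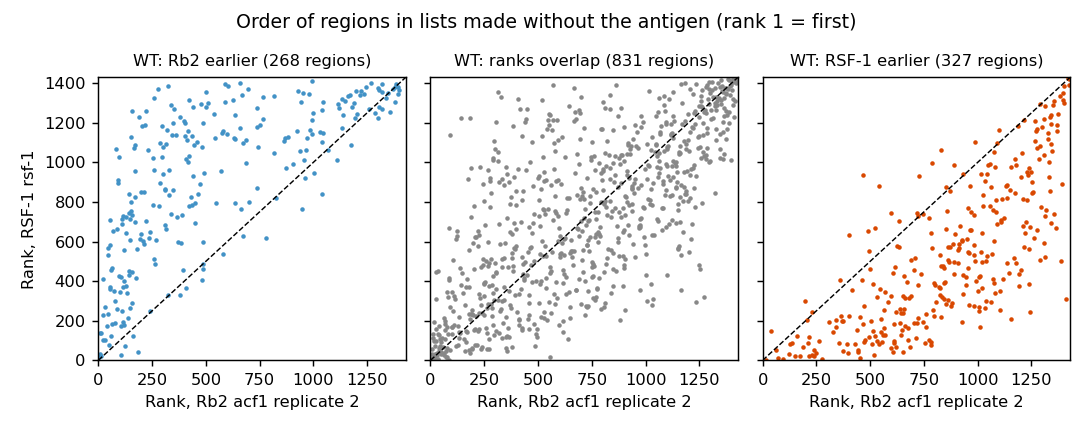
Rank in the rsf-1 mutant (RSF-1 ChIP, vertical axis) against rank in acf1 replicate 2 (Rb2 ChIP, horizontal axis) for regions called in all 5 WT lists, where rank 1 is the first and each point is a region. From left to right are the regions that Rb2 ranked earlier in WT chromatin (268), those whose ranks overlapped (831) and those that RSF-1 ranked earlier (327). Above the dashed line of equal ranks lie 88.1% of the first set and 7.65% of the last.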

How the data were processed

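Per the labels, reads were mapped by the authors with Bowtie 1.1.1 to Release 5 of the genome (dm3), and peaks were called with HOMER; the study gives unique hits and default settings. Each deposited file lists intervals (chromosome name, start position, end position, in bp), with no other value.

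Here a peak was shared if 50 bp or more overlapped. Overlapping peaks were merged into regions, and a group region needed 2 libraries. Differences between groups were tested by two-sided exact permutation over library labels (10 splits), with Benjamini-Hochberg adjustment over 7 chromosome classes. Shares have exact (Clopper-Pearson) 95% intervals. Named regions were the 6 lowest in mean place per class or, where over 90% of neighbours on a chromosome ascend, the first 6 by position. The lists met this in short stretches (97.6 to 99.0%) without being sorted, so both are given. Members, classes and tests were chosen with earlier results of these data known. The alternatives were other overlaps, arms alone, removal of input peaks, other rules for group regions, lists of equal length and each library left out. Scripts ran under Python 3.11.15 with scipy 1.17.1, numpy 2.4.6 and, for plots, matplotlib 3.10.9, and were tested on simulated data. The gene table at hand is of Release 6 and positions were not converted, so no gene or sequence is given.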

Additional observations from a re-analysis of the deposited data

Results flagged for a closer look

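Of the 318 regions called in both RSF-1 WT and no Rb2 WT library, 4 (1.26%) had a peak in WT input replicate 2. The other 6 WT inputs had 1 or 2 of them (0.314 to 0.629%), and the gap to the nearest was large for a group of 7. That input list was also the longest, with 2359 peaks against 250 to 1045 in the others. Of the 1399 RSF-1 peaks that Rb2 did not share in the same chromatin, 47 (3.36%) were met by WT input replicate 5, which has 263 peaks, and 1.07 to 2.00% by the other WT inputs. For normally distributed values, gaps of this size arise by chance in about 1 of 20 groups. For small counts from lists of unequal length the rate is not known. The part of list length in either value was not tested.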

How the results depend on the processing

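For 24 results, 248 values were computed under other choices. Of these, 17 had the other sign, and 53 moved by more than counting error or, for counts, by over 1.5 times. The other 178 kept their direction and their side of the threshold or stayed within those bounds. Differences that passed no test could be several times larger or smaller among them. Part of the 178 could not change, so that this count does not measure robustness. Peak numbers and chromosome shares do not use the overlap rule, and the same-chromatin shares do not use the other libraries. No permutation test with so few libraries could pass the threshold, so that its side was fixed in advance. With an overlap of 150 bp or more, the shares of Rb2 and RSF-1 group regions were 74.0 and 69.1%, those of the pair from the same chromatin 75.2 and 54.2%, and the share of RSF-1 regions found in the rsf-1 mutant 88.8%. On the arms alone, the Rb2 shares were 82.3% (group regions) and 87.9% (same chromatin). Without peaks of the own input the first was 81.6%. With group regions of any library the shares were 67.3 and 65.5%, and with those of every library 93.1 and 45.8%. With all lists cut to 2556 peaks, the group shares were 71.9 and 80.0%, those of the same chromatin 71.0 and 71.0%, the regions of Rb2 alone and RSF-1 alone 79 and 207, and the share found in the rsf-1 mutant 97.1%. The pair overlap was then -2.07 points, 3L -0.613, chromosome 4 -0.632 (exact permutation test, p = 0.100, the smallest possible) and X 1.44. Unshared peaks then came later by 33.3 points. In the whole lists it was 38.4 points where sharing with any library of the other factor sufficed. For the first 100, 500 and 1000 peaks, which were chosen after seeing the data, the pair overlap was -10.6, -9.15 and -6.82 points. The cause of these shifts was not tested.

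With each library left out in turn, the pair overlap was -4.69 to 7.14 points, the shares of group regions 81.6 to 91.1% (Rb2) and 46.2 to 69.5% (RSF-1), and the log2 difference in peaks -0.739 to -0.0704. Regions called in all libraries numbered 1483 to 1995, those of Rb2 alone 34 to 129 and those of RSF-1 alone 352 to 1958. Of these classes, 63.6 to 98.5% were found in an acf1 list and 73.5 to 94.9% in the rsf-1 list. Differences by chromosome were -1.16 to 0.162 (2L), -0.837 to 0.993 (3L), -1.40 to 0.125 (3R), -0.393 to 0.717 (4), -1.59 to -0.363 (2R), -0.868 to -0.458 (X) and 0.549 to 4.81 (off the arms). Unshared peaks came later by 42.4 to 49.0 points. The sets ordered by factor held 345 to 485 and 390 to 640 regions, of which 79.3 to 86.4% and 83.8 to 89.7% kept their order in the mutants. The difference over the first 100 peaks was -13.5 to -7.25.

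Replicate numbers do not pair the libraries (correlations of deviations -0.10 to 0.10). With the replicate block for numbers 1 and 2, the log2 difference in peaks was -0.482 (exact permutation test, p = 1.00). Read depth per library is not known here, and it limits which weak enrichments were called.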
